A study of Homo sapiens with 36 samples.

Results

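The dependence of the LPS response on NR4A2 was measured at 5% CO2 as an interaction, the LPS effect in cells with NR4A2 knocked down minus the LPS effect in control cells. It rested on 12 of the 36 RNA-seq libraries of the series, chosen by their labels alone, with 3 libraries in each of 4 conditions. All were THP-1 cells, a human monocytic line of leukaemic origin, transduced with lentiviral particles that carried either a non-target short hairpin RNA (shNT) or one against NR4A2 (shNR4A2). Every culture was held at 5% CO2 in buffered medium, and the LPS-stimulated cultures received LPS at 2.5 µg/ml for 2 h before lysis, while basal cultures received none. There was 1 line per hairpin. Other differences between the lines, before LPS, after it or in the LPS effect itself, therefore cannot be told apart from the loss of NR4A2. The labels do not say which libraries share a culture or an experiment, and p-values measure the spread between these libraries.

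NR4A2 (Nurr1), NR4A1 (Nur77) and NR4A3 (NOR-1) form a family of orphan nuclear receptors, transcription factors without a known physiological ligand in the usual sense. Their genes are immediate-early genes in monocytes and macrophages, transcribed soon after toll-like receptor engagement, and the proteins bind as monomers to a DNA element called NBRE, an AGGTCA half-site preceded by a pair of adenines. LPS is sensed by the TLR4, MD-2 and CD14 complex, which signals through MyD88 and TRIF to NF-kB, AP-1 and interferon regulatory factors, and NR4A2 has been described in myeloid cells as a restraint on NF-kB target genes.

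The 12 libraries held 17132910 to 23929138 counts assigned to genes, with a median of 20111784.5, and 17720 genes passed the filter on low counts. A gene is called below when its Benjamini-Hochberg adjusted p from edgeR's quasi-likelihood test was under 0.05, and a log2 value is the fitted log2 fold change or, for an interaction, the difference of 2 such changes. Levels are given per library as TPM, a measure corrected for gene length and library size. All 9 listed monocyte markers were above 1 TPM, and the erythroid, T cell and epithelial lists each summed to at most 1.33 TPM in any library. The NK cell list summed to 41.8 to 66.5 TPM (NCAM1 and NKG7 above 1 TPM), the B cell list to 5.75 to 13.6, the platelet list to 6.60 to 15.8, the macrophage list to 1.90 to 9.27 and the dendritic cell list to 0.513 to 6.34 TPM. The summed monocyte markers were higher in the shNR4A2 line than in shNT cells, at 1624 to 1877 against 1075 to 1196 TPM in the basal state and 1689 to 1974 against 1152 to 1352 TPM with LPS. The macrophage list was also higher, at 8.28 to 8.91 against 1.90 to 3.33 TPM in the basal state, and so was the dendritic cell list, at 2.47 to 6.34 against 1.09 to 1.67 TPM in the basal state and 2.82 to 3.38 against 0.513 to 1.08 TPM with LPS. The part of these differences in the interaction was not tested. Replicate 2 of the LPS-stimulated shNR4A2 cells differed most from its group, and genes whose interaction was called without it are named with the alternatives. Replicate 2 of the basal shNR4A2 cells also stood apart from the other libraries of its group. In such bulk libraries, fewer responding cells and less RNA per cell cannot be told apart.

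NR4A2 was itself lower in the shNR4A2 line and was still induced by LPS there. It lies at chr2:156324432-156342348 on the minus strand (GRCh38, ENSG00000153234). In basal shNT cells it was at 4.16, 2.83 and 4.08 TPM, and in basal shNR4A2 cells at 1.82, 1.63 and 2.41 TPM. With LPS it reached 62.2, 74.7 and 51.3 TPM in shNT cells and 20.5, 28.3 and 14.8 TPM in shNR4A2 cells. The lines did not overlap in either state, and mean TPM was lower by 47.0% in the basal state and by 66.2% with LPS (log2 -0.92, adjusted p = 0.0327, and -1.52, adjusted p = 5.8e-05). NR4A2 was thus at a higher TPM in stimulated knock-down cells than in basal control cells. LPS raised NR4A2 17.0-fold in shNT cells and 10.9-fold in shNR4A2 cells by mean TPM. The fitted LPS effects were 4.29 and 3.69 on the log2 scale, and their difference was -0.60 (95% interval -1.25 to 0.04, unadjusted p = 0.0643). NR4A3, at chr9:99821855-99866891 on the plus strand, was at 30.9, 32.3 and 31.9 TPM in LPS-stimulated shNT cells and at 33.0, 32.8 and 36.1 TPM in shNR4A2 cells, a line difference of 0.15 that was not called (adjusted p = 0.597). Without LPS the line difference was 0.68 (adjusted p = 0.146). Its interaction was -0.53 (-1.15 to 0.10), and that of NR4A1, at chr12:52022832-52059507 on the plus strand, was -0.07 (-0.61 to 0.46). NR4A1 shares 10.3% of its exonic bases with NR4A1AS on the opposite strand.

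**Figure D1:**
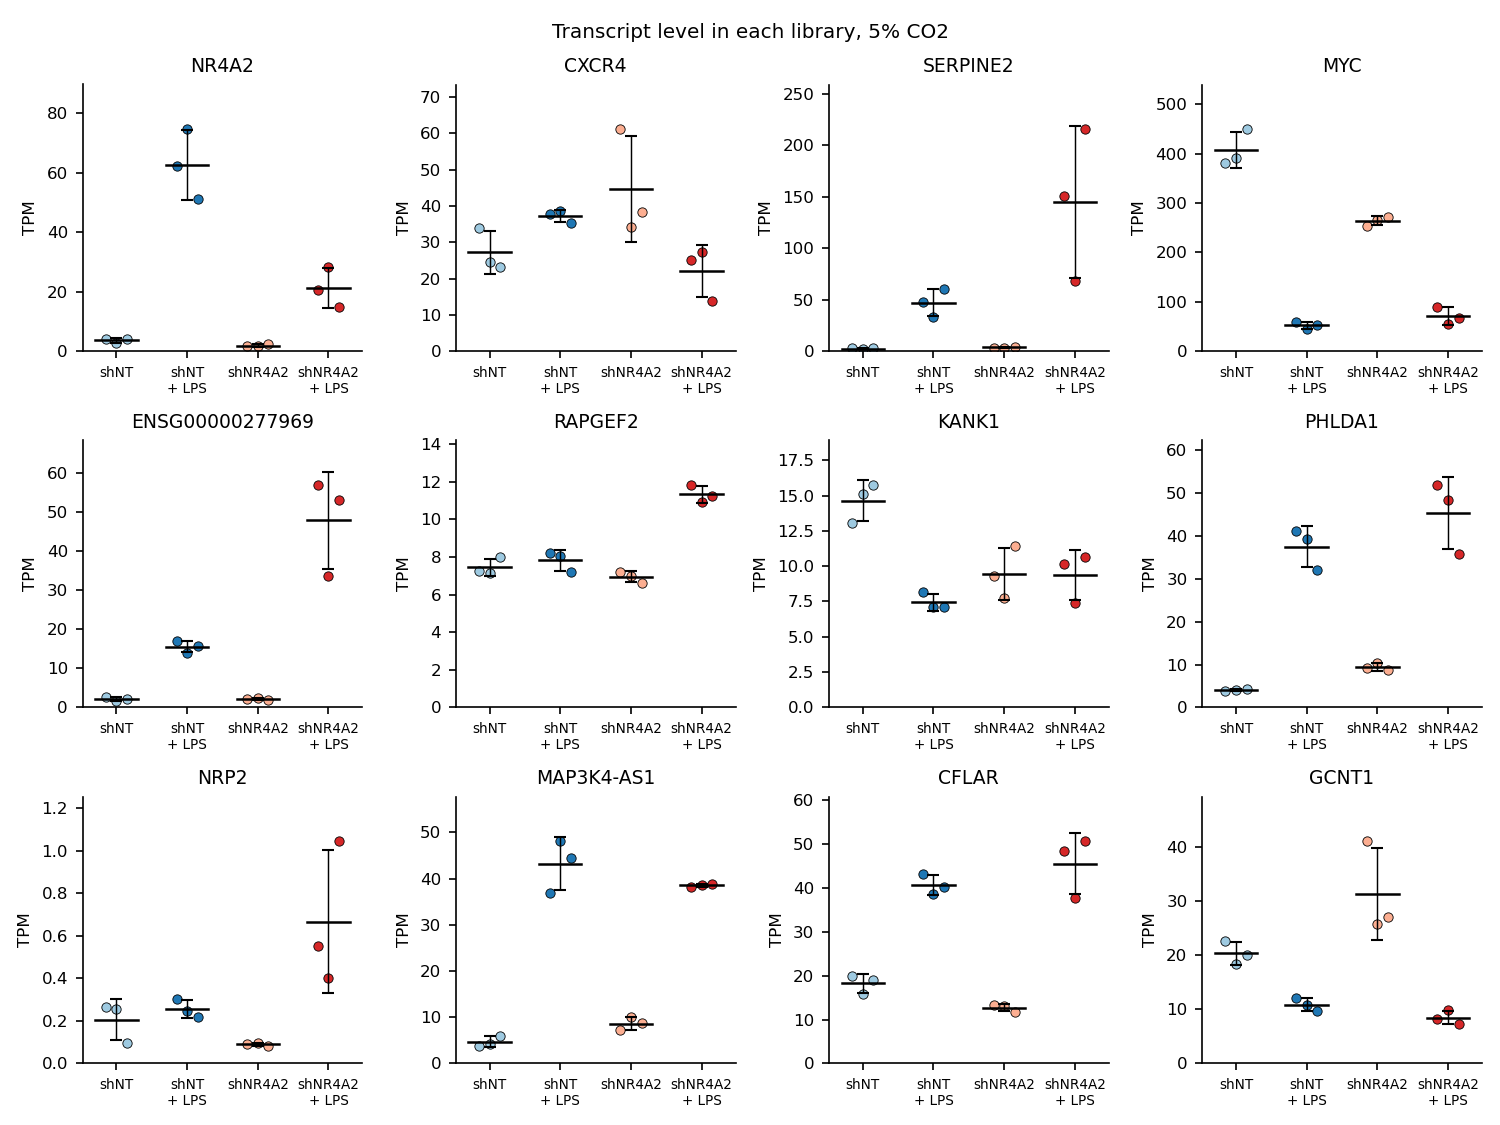
TPM per library (linear axes from 0) of NR4A2, CXCR4, SERPINE2 and 9 of the 10 genes with the smallest interaction p at 5% CO2, with 3 points per condition, the mean as a horizontal line and the SD as bars. NR4A2 sits lower in the shNR4A2 line in both states, while ENSG00000277969 reaches 33.6 to 57.0 TPM in LPS-stimulated shNR4A2 cells and 14.0 to 17.0 TPM in LPS-stimulated shNT cells.

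The LPS response was large and ran in the same direction in both lines. Averaged over the lines, 6281 of 17720 genes were called for LPS (35.4%), of which 2952 (16.7%) were higher and 3329 (18.8%) lower. Taken separately, LPS was called for 3209 genes (18.1%) in shNT cells and 4319 (24.4%) in shNR4A2 cells. A total of 2761 genes were called in both lines in the same direction, and 0 in opposite directions. Unequal numbers called do not show unequal responses, and the interaction tests that directly.

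The largest induction belonged to the CC chemokine genes CCL4 and CCL4L2, attractants of monocytes and lymphocytes. CCL4 was induced by 9.70 in shNT and 9.74 in shNR4A2 cells on the log2 scale, an interaction of 0.04 (-0.87 to 0.94). Since CCL4 and CCL4L2 are nearly identical, reads may have been split between them and the separate values are uncertain. The largest falls were those of GPR82, an orphan G protein-coupled receptor gene (-4.17 and -3.71), ADORA3, the adenosine A3 receptor gene (-3.97 and -3.28), and ENSG00000280061, which has no symbol (-4.14 and -3.76), each given for shNT and then shNR4A2 cells.

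The interaction was called for 0 of 17720 genes at 5% CO2 by edgeR's quasi-likelihood test (0%). DESeq2 called 2 genes on the same libraries, of which MYC is described below. A fit with the replicate number as a block called 8, given with the alternatives since no label ties the numbers. At an unadjusted p under 0.05 there were 392 genes (2.21%), 204 (1.15%) with a more positive and 188 (1.06%) with a more negative LPS effect in shNR4A2 cells. The 95% interval of the interaction lay within a 2-fold difference in either direction for 11614 of the 17660 genes with a fitted fold change (65.8%), and a larger difference lay outside these intervals. Among the genes changed at least 2-fold by LPS the share was 512 of 1599 (32.0%), so that for most genes strongly changed by LPS a 2-fold difference in response lay inside the interval.

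Across the genes with a strong LPS response, the shift between lines was small and was read only as a description, since the genes were chosen on the same libraries. The 949 genes induced at least 2-fold on average had a median interaction of 0.20, with quartiles of -0.11 and 0.65, and 650 of them had a positive and 299 a negative value. Their median LPS effect was 2.02 in shNT and 2.23 in shNR4A2 cells. The 650 genes repressed at least 2-fold had a median interaction of -0.09 and median LPS effects of -1.26 and -1.34. Over all genes the median interaction was 0.01. The LPS-repressed median ran from -0.16, without replicate 2 of LPS-stimulated shNR4A2 cells, to -0.03 over the alternatives. The LPS-induced median was 0.35 without replicate 2 of LPS-stimulated shNR4A2 cells and 0.13 at the lowest of the alternatives. In the separate libraries at 10% CO2 the same 2 sets of genes had medians of 0.26 and -0.12.

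**Figure D2:**
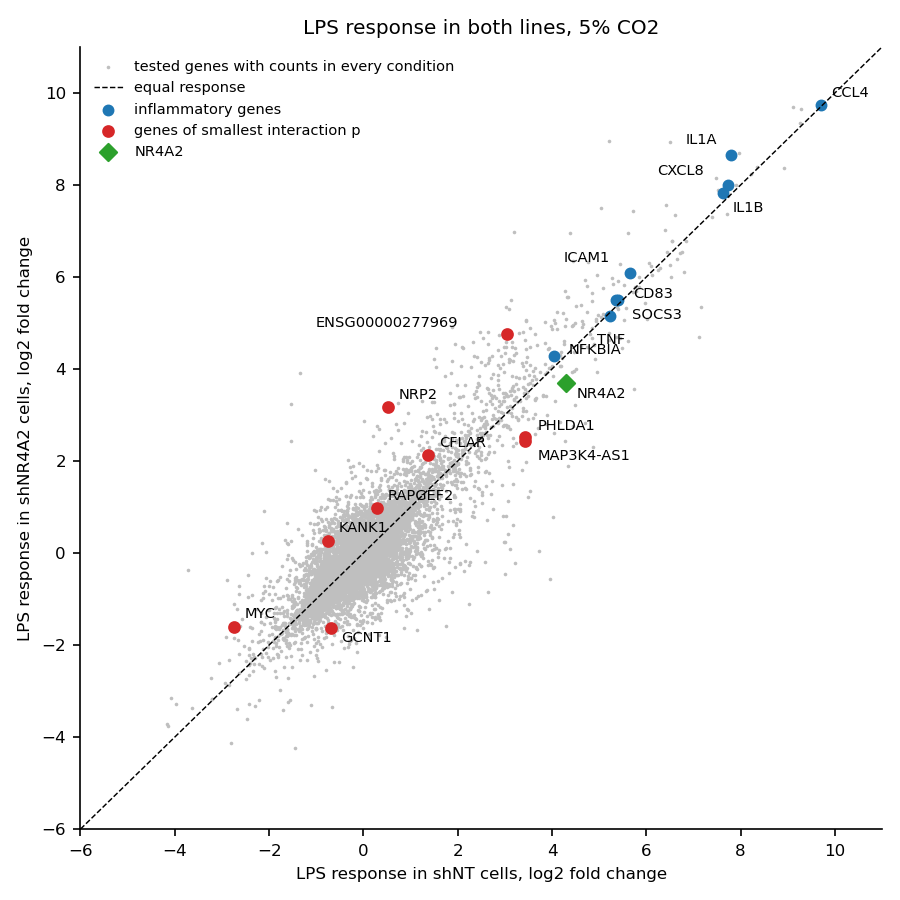
LPS effect (log2 fold change) in shNR4A2 cells against that in shNT cells at 5% CO2, 1 point per tested gene, with the dashed line of equal response, 9 of the 10 genes of smallest interaction p in red, named inflammatory genes in blue and NR4A2 in green. Points lie along the line, and Pearson's r across the 1599 genes changed at least 2-fold was 0.954 (0.878 in the induced and 0.421 in the repressed genes alone), genes not being independent replicates.

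Since fewer than 10 genes were called, 9 of the 10 genes with the smallest interaction p are described. None of them passed the adjusted threshold at 5% CO2 in edgeR's fit without a block. In 6 of them the LPS effect was more positive in shNR4A2 cells and in 3 more negative. By calls alone, the genes divided into those whose lines differed with LPS and those whose lines differed in the basal state. The line difference was called only with LPS for 3 genes and only without LPS for 6, against 7.99% of all tested genes called with LPS and 6.38% without. The difference between the states is the interaction itself, and for none of the 9 was that called. Since the 9 were chosen by interaction p in the same libraries, a line difference in at least 1 state was built in. The counts are therefore no test against these shares.

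ENSG00000277969, a gene without a symbol at chr17:38702452-38704747 on the plus strand, differed between the lines after LPS. Its basal levels overlapped between the lines, at 2.60, 1.63 and 2.24 TPM in shNT and 2.21, 2.41 and 1.79 TPM in shNR4A2 cells. LPS took it to 17.0, 14.0 and 15.7 TPM in shNT and to 57.0, 33.6 and 53.2 TPM in shNR4A2 cells. The stimulated libraries of the lines did not overlap, with a line difference of 1.68 with LPS (adjusted p = 5.3e-05) and -0.03 without. LPS raised it by 3.06 and 4.77 on the log2 scale, and the interaction was 1.71 (SE 0.37, interval 0.93 to 2.49, unadjusted p = 0.000242). It shares 12.1% of its exonic bases with ENSG00000275532 on the opposite strand, and without a stated strand setting the reads of overlapping genes cannot be told apart.

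RAPGEF2, a guanine nucleotide exchange factor for the small GTPase Rap1, lies at chr4:159104178-159360169 on the plus strand. It stayed between 6.63 and 7.98 TPM in the 6 basal libraries. With LPS it was at 8.20, 8.06 and 7.20 TPM in shNT cells, an LPS effect of 0.28 that did not pass the test (adjusted p = 0.076), and at 11.8, 10.9 and 11.2 TPM in shNR4A2 cells, where it rose by 0.98 (adjusted p = 2.6e-06). The interaction was 0.69 (SE 0.15, interval 0.37 to 1.01, unadjusted p = 0.000255), the smallest in size of the 9.

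NRP2, the neuropilin-2 co-receptor for semaphorins and VEGF, had the largest interaction of the 9 and the fewest reads. It lies at chr2:205681990-205798133 on the plus strand. The counts were 21, 17 and 7 in basal shNT, 24, 19 and 19 in LPS-stimulated shNT, 8, 7 and 7 in basal shNR4A2 and 38, 30 and 85 in LPS-stimulated shNR4A2 cells. No library passed 1.05 TPM, and the 3 stimulated shNR4A2 libraries spread widely. NRP2 rose by 3.17 in shNR4A2 cells (adjusted p = 4.1e-05), with 0.52 in shNT cells (adjusted p = 0.47), and the interaction was 2.65 (SE 0.63, interval 1.31 to 3.98, unadjusted p = 0.00061). The line difference with LPS was 1.44 (adjusted p = 0.026). It was lost in 3 of the 12 fits that left out 1 library, those without replicate 2 or 3 of LPS-stimulated shNT cells and that without replicate 3 of LPS-stimulated shNR4A2 cells (adjusted p = 0.173).

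MYC, the growth-promoting transcription factor, was repressed by LPS in both lines, from a lower starting level in shNR4A2 cells. It lies at chr8:127735434-127741434 on the plus strand. Basal levels were 381, 391 and 450 TPM in shNT and 254, 265 and 272 TPM in shNR4A2 cells, with no overlap. LPS-stimulated levels were 58.5, 45.8 and 52.5 TPM and 90.4, 56.0 and 68.2 TPM, which overlapped. MYC fell by 2.74 in shNT (adjusted p = 6.4e-09) and by 1.60 in shNR4A2 cells (adjusted p = 2.0e-06) on the log2 scale, an interaction of 1.14 (SE 0.22, interval 0.66 to 1.61, unadjusted p = 0.000118). The line difference was -0.63 in the basal state (adjusted p = 0.024) and 0.51 with LPS (adjusted p = 0.064). The basal call was lost in 5 of the 12 fits that left out 1 library.

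KANK1, a regulator of actin and focal adhesions at chr9:470291-746106 on the plus strand, also began lower in shNR4A2 cells. It was at 13.0, 15.1 and 15.7 TPM in basal shNT and 9.28, 7.73 and 11.4 TPM in basal shNR4A2 cells. LPS lowered it to 8.14, 7.10 and 7.12 TPM in shNT cells (log2 -0.76, adjusted p = 0.0027), and in shNR4A2 cells it was at 10.2, 7.37 and 10.6 TPM (0.27, adjusted p = 0.25). The interaction was 1.03 (SE 0.23, interval 0.55 to 1.502, unadjusted p = 0.000288).

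CFLAR encodes c-FLIP, the inhibitor of caspase-8 activation at death receptors and an NF-kB target, and lies at chr2:201116104-201176687 on the plus strand. Its basal levels were 19.8, 15.8 and 19.1 TPM in shNT and 13.2, 13.0 and 11.7 TPM in shNR4A2 cells (line difference -0.53, adjusted p = 0.023). With LPS the lines overlapped, at 43.1, 38.7 and 40.2 TPM and 48.4, 37.6 and 50.7 TPM. LPS raised it by 1.38 and 2.13, an interaction of 0.75 (SE 0.18, interval 0.36 to 1.14, unadjusted p = 0.000797). Part of its exons overlaps CFLAR-AS1 and other transcripts.

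PHLDA1, an early-response gene of the pleckstrin homology-like family that restrains growth factor signalling, showed the opposite order. It lies at chr12:76025447-76033932 on the minus strand. Basal levels were 3.92, 4.03 and 4.20 TPM in shNT and 9.27, 10.4 and 8.62 TPM in shNR4A2 cells, a line difference of 1.22 (adjusted p = 6.7e-05) that was called in all 12 fits with 1 library left out. With LPS the lines overlapped, at 41.1, 39.3 and 32.1 TPM and 51.9, 48.4 and 35.8 TPM. The LPS effect was 3.43 in shNT and 2.53 in shNR4A2 cells, an interaction of -0.89 (SE 0.20, interval -1.31 to -0.48, unadjusted p = 0.000289). Transcripts on the opposite strand cover 16.5% of its exonic bases.

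MAP3K4-AS1, a noncoding transcript at chr6:160990318-160992342 on the minus strand, followed the same course. It was at 3.82, 4.22 and 6.01 TPM in basal shNT, 7.14, 9.98 and 8.69 TPM in basal shNR4A2, 36.9, 48.1 and 44.5 TPM in LPS-stimulated shNT and 38.2, 38.6 and 38.9 TPM in LPS-stimulated shNR4A2 cells. Its interaction was -0.99 (SE 0.24, interval -1.49 to -0.49, unadjusted p = 0.000644), and 17.6% of its exonic bases lie opposite MAP3K4. GCNT1, a glycosyltransferase that builds core 2 O-glycans used by selectin ligands, lies at chr9:76419850-76507416 on the plus strand and was repressed by LPS in both lines. It was at 22.6, 18.3 and 19.98 TPM in basal shNT and 41.0, 25.7 and 27.0 TPM in basal shNR4A2 cells, and with LPS at 11.97, 10.8 and 9.66 TPM and 8.22, 9.80 and 7.33 TPM. It fell by 0.69 in shNT (adjusted p = 0.0057) and by 1.63 in shNR4A2 cells (adjusted p = 1.1e-06), an interaction of -0.93 (SE 0.23, interval -1.42 to -0.45, unadjusted p = 0.0008). The 6 genes from MYC to GCNT1 were thus called between the lines before LPS was added, and their stimulated levels were not called. With 1 library left out the basal call was lost in 5 of 12 fits for MYC, 4 for KANK1, 3 each for CFLAR and GCNT1, 1 for MAP3K4-AS1 and 0 for PHLDA1.

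**Figure D3:**
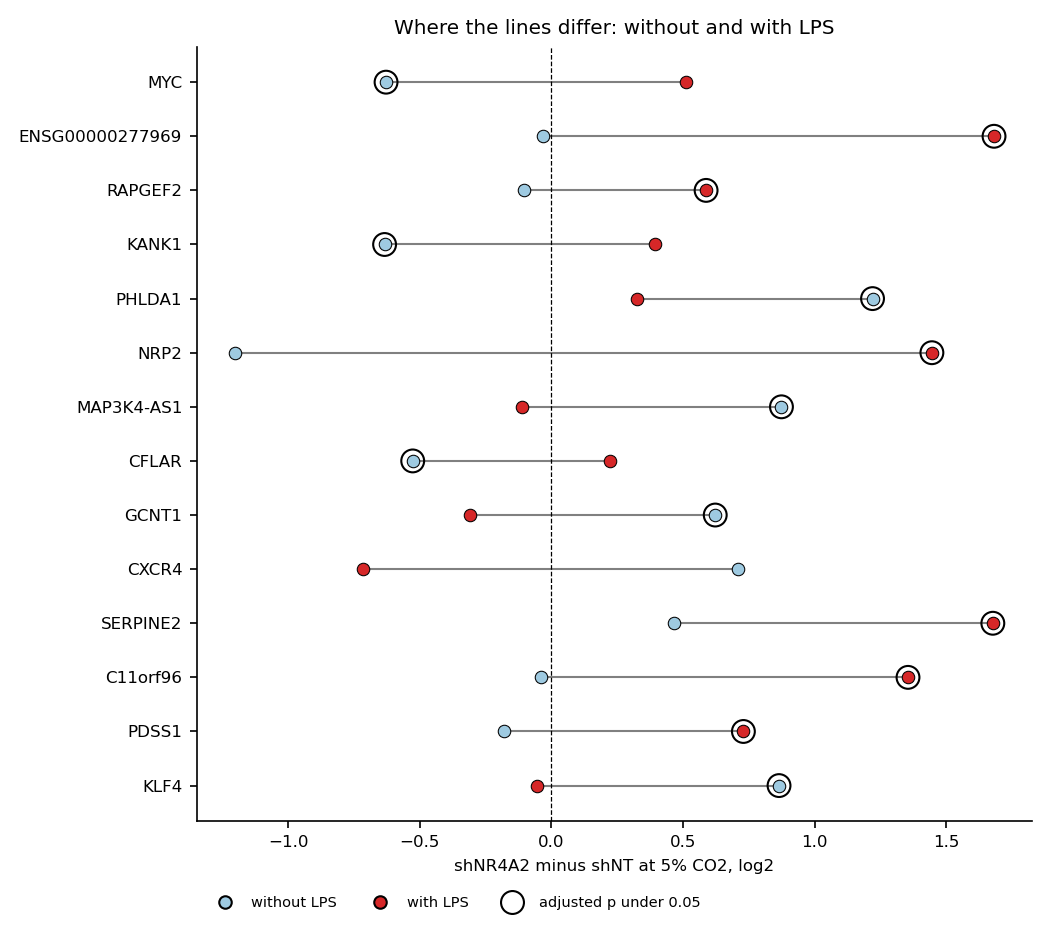
Difference between the lines at 5% CO2 (shNR4A2 minus shNT, log2) without LPS in blue and with LPS in red, joined for each gene, with a ring where it was called, for 9 of the 10 genes of smallest interaction p, another 4 called at 10% CO2 and KLF4. ENSG00000277969, RAPGEF2 and NRP2 carry the ring on the point with LPS, and MYC, KANK1, CFLAR, PHLDA1, MAP3K4-AS1 and GCNT1 on the point without.

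Promoter sequence was read for these genes because the NBRE is the element that NR4A2 binds. Of the 9 genes, 7 had entries among the RefSeq promoters (GRCh38.p14), with 18 start sites, and windows of 250 bases before each start were searched on both strands. The NBRE, AAAGGTCA, was in 0 of the 18 windows and in 367 of 35116 windows of all genes (1.05%). The shorter half-site AGGTCA, which the NBRE contains, was in 1 of the 18, at a start site of KANK1, and in 4242 of all windows (12.1%). A match is a run of letters and not a bound site, and a window without one says nothing about binding elsewhere. The KANK1 window (chr9:693430-693679, plus strand), a window of RAPGEF2 with neither element (chr4:159102829-159103078, plus strand) and a half-site window of SERPINE2, a gene called at 10% CO2 (chr2:224031479-224031728, minus strand), are shown to compare the presence and absence of the half-site. Capitals mark the half-site, which starts 230 bases before the KANK1 start site and 91 bases before that of SERPINE2.
KANK1: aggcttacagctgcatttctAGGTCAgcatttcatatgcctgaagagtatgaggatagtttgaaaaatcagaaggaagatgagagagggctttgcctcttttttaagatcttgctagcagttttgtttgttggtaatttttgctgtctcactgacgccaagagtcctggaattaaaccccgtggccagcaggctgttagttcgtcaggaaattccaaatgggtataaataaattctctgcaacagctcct
RAPGEF2: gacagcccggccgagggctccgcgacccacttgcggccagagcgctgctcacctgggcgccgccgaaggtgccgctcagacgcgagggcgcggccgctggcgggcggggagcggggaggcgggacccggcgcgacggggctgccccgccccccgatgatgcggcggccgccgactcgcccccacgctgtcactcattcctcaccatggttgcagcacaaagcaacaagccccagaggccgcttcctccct
SERPINE2: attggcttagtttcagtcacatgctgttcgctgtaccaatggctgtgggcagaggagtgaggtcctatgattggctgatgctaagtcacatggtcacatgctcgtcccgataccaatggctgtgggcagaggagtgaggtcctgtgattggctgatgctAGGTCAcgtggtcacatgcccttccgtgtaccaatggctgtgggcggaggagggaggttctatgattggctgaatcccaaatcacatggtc

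The 10% CO2 libraries, a separate set of 12 from the same lines, gave the same interaction in a second gas condition and held none of the libraries used above. Of the 392 genes with an unadjusted p under 0.05 at 5% CO2, 288 (73.5%) had the same direction at 10% CO2, where 59.8% of all tested genes did. Same direction together with an unadjusted p under 0.05 was seen for 111 of the 392 (28.3%) and for 3.41% of all tested genes. Every one of the 9 genes described above had the same direction and an unadjusted p of at most 0.00325. At 10% CO2 the interaction was called for 8 genes (0.0451%), 7 higher (0.0395%) and 1 lower (0.00564%), with 735 (4.15%) at an unadjusted p under 0.05. Of the 8, 7 are named here after their values were seen, and 3 of these are among the 9 above: MYC (1.18, adjusted p = 0.0033), ENSG00000277969 (1.60, adjusted p = 0.019) and RAPGEF2 (0.90, adjusted p = 0.041). The difference between the interactions at 10% and 5% CO2 was called for 0 genes by edgeR, with 203 (1.15%) at an unadjusted p under 0.05.

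The other 4 of the genes named had the same sign at 5% CO2. CXCR4, the chemokine receptor for CXCL12, lies at chr2:136114349-136118165 on the minus strand. At 5% CO2 it was at 34.04, 24.4 and 23.2 TPM in basal shNT and 37.7, 38.7 and 35.4 TPM in stimulated shNT cells, against 61.2, 34.3 and 38.4 TPM and then 24.99, 27.3 and 13.9 TPM in shNR4A2 cells. The effect of LPS was 0.66 in shNT cells (adjusted p = 0.084) and -0.76 in shNR4A2 cells (adjusted p = 0.040), and the interaction -1.42 (interval -2.18 to -0.67, unadjusted p = 0.0013). The stimulated lines did not overlap, with shNR4A2 cells lower, but the line difference of -0.72 was not called (adjusted p = 0.10). At 10% CO2 the interaction was -1.81 (adjusted p = 0.00072). SERPINE2, which encodes protease nexin-1, an inhibitor of thrombin and plasminogen activators, lies at chr2:223975112-224039319 on the minus strand. It was at 48.4, 33.5 and 60.2 TPM in stimulated shNT and 150.4, 68.5 and 216 TPM in stimulated shNR4A2 cells at 5% CO2, all higher, with 74.9, 89.9 and 79.8 TPM against 258, 299.6 and 281 TPM at 10% CO2. Its interaction was 1.21 (interval -0.03 to 2.45) at 5% and 1.55 (adjusted p = 0.00072) at 10% CO2. PDSS1, a subunit of the enzyme that makes the coenzyme Q side chain, had an interaction of 0.91 (interval 0.36 to 1.46) at 5% and 1.17 (adjusted p = 0.0023) at 10% CO2. In stimulated cells at 5% CO2 it was at 92.4, 82.1 and 92.8 TPM in shNT and 177, 102 and 146 TPM in shNR4A2 cells. C11orf96, an open reading frame of little-studied function, was at 9.84, 7.14 and 7.80 TPM and at 24.01, 19.5 and 17.7 TPM, with interactions of 1.39 (0.64 to 2.15) and 2.35 (adjusted p = 0.042). Other transcripts cover 10.5% of the exonic bases of PDSS1 and 25.5% of those of C11orf96.

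Averaged over both CO2 levels, a fit of 24 libraries added after the values were seen, the interaction was called for 40 genes (0.226%), 29 higher (0.164%) and 11 lower (0.0621%), with 855 (4.83%) at an unadjusted p under 0.05 and values from -1.61 for CXCR4 to 2.28. Of the 40, 39 were divided further. LPS itself was called higher for 23 of the 39, lower for 7 and neither for 9, against 16.7% higher and 18.8% lower in all tested genes. The line difference at 5% CO2 was called only with LPS for 16, only without for 11, in both states for 1 and in neither for 11. In all tested genes it was called for 7.99% with LPS and 6.38% without. The 39 were chosen in part on the same libraries, so that the line counts are no test against these shares. MYC and RAPGEF2 were among the 40, at 1.16 and 0.80 (adjusted p = 0.00028 for both).

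**Figure D4:**
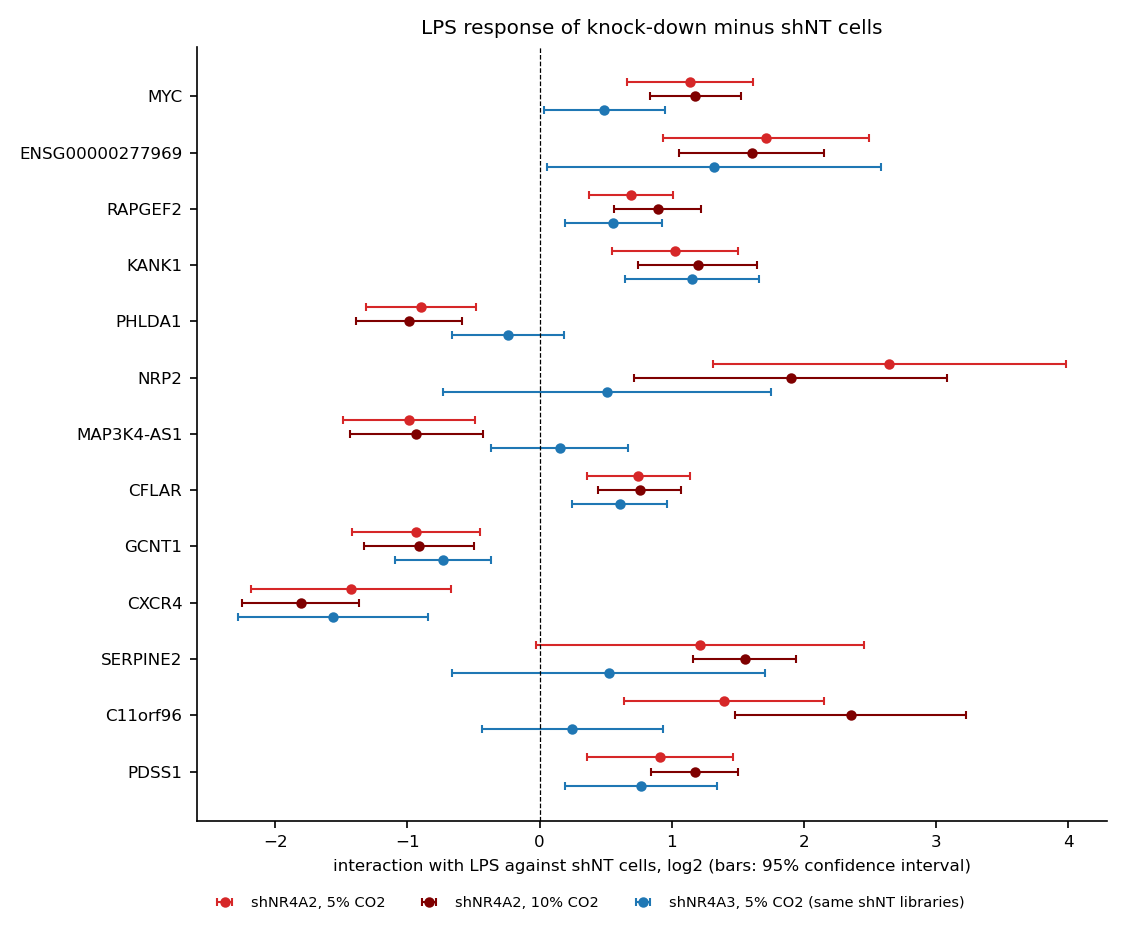
Interaction with LPS (log2, with 95% intervals) of the shNR4A2 line at 5% CO2, of the shNR4A2 line at 10% CO2 and of the shNR4A3 line at 5% CO2, for 9 of the 10 genes of smallest p at 5% CO2 and another 4 called at 10% CO2. Each gene has the same sign at 5% and 10% CO2. The shNR4A3 line has the sign of the shNR4A2 line for 8 of the 9 genes and for the other 4. The exception is MAP3K4-AS1, with -0.99 in the shNR4A2 and 0.15 in the shNR4A3 line at 5% CO2.

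The shNR4A3 line, in which the hairpin targets the related receptor, was compared with the same shNT libraries, so that the 2 interactions are not independent and their values are only set side by side. The shNR4A3 interaction was called for 0 genes by edgeR (0%), with 854 (4.82%) at an unadjusted p under 0.05 and 8 by DESeq2. For RAPGEF2 it was 0.56 beside 0.69 in shNR4A2 cells, for KANK1 1.15 beside 1.03 and for GCNT1 -0.73 beside -0.93. For PHLDA1 it was -0.24 beside -0.89, for NRP2 0.51 beside 2.65 and for MAP3K4-AS1 0.15 beside -0.99. The sign was the same in both knock-down lines for 8 of the 9 genes of smallest p. It was also the same for all 7 named genes called at 10% CO2 and for 37 of the 39 called over both CO2 levels. The shared shNT libraries favour a common sign, and the share over all tested genes is not given here. These counts are therefore no measure of agreement between the knock-down lines. The difference between the knock-down lines, in which shNT plays no part, was -1.14 for MAP3K4-AS1 (unadjusted p = 0.00013), 2.13 for NRP2 (unadjusted p = 0.0045) and 0.65 for MYC (unadjusted p = 0.034), and it was called for 0 genes by edgeR, with 423 (2.39%) at an unadjusted p under 0.05, 1 called by DESeq2 and 1 called with the replicate number as a block.

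The pathway genes of the LPS response were described by 24 lists. Of 318 listed genes 296 were tested. LPS, averaged over the lines, raised 173 and lowered 27 of them, against 16.7% raised and 18.8% lowered in all tested genes. The interaction was called for 0 of the 296, the share in all tested genes also being 0%. An unadjusted p under 0.05 was found for 15 (5.07%), 10 higher and 5 lower. That share was 2.21% in all tested genes and 10.0% in the 949 genes induced at least 2-fold by LPS. For 179 of the 290 with a fitted value the 95% interval lay within a 2-fold difference, against 65.8% of all genes with a fitted fold change.

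**Figure D5:**
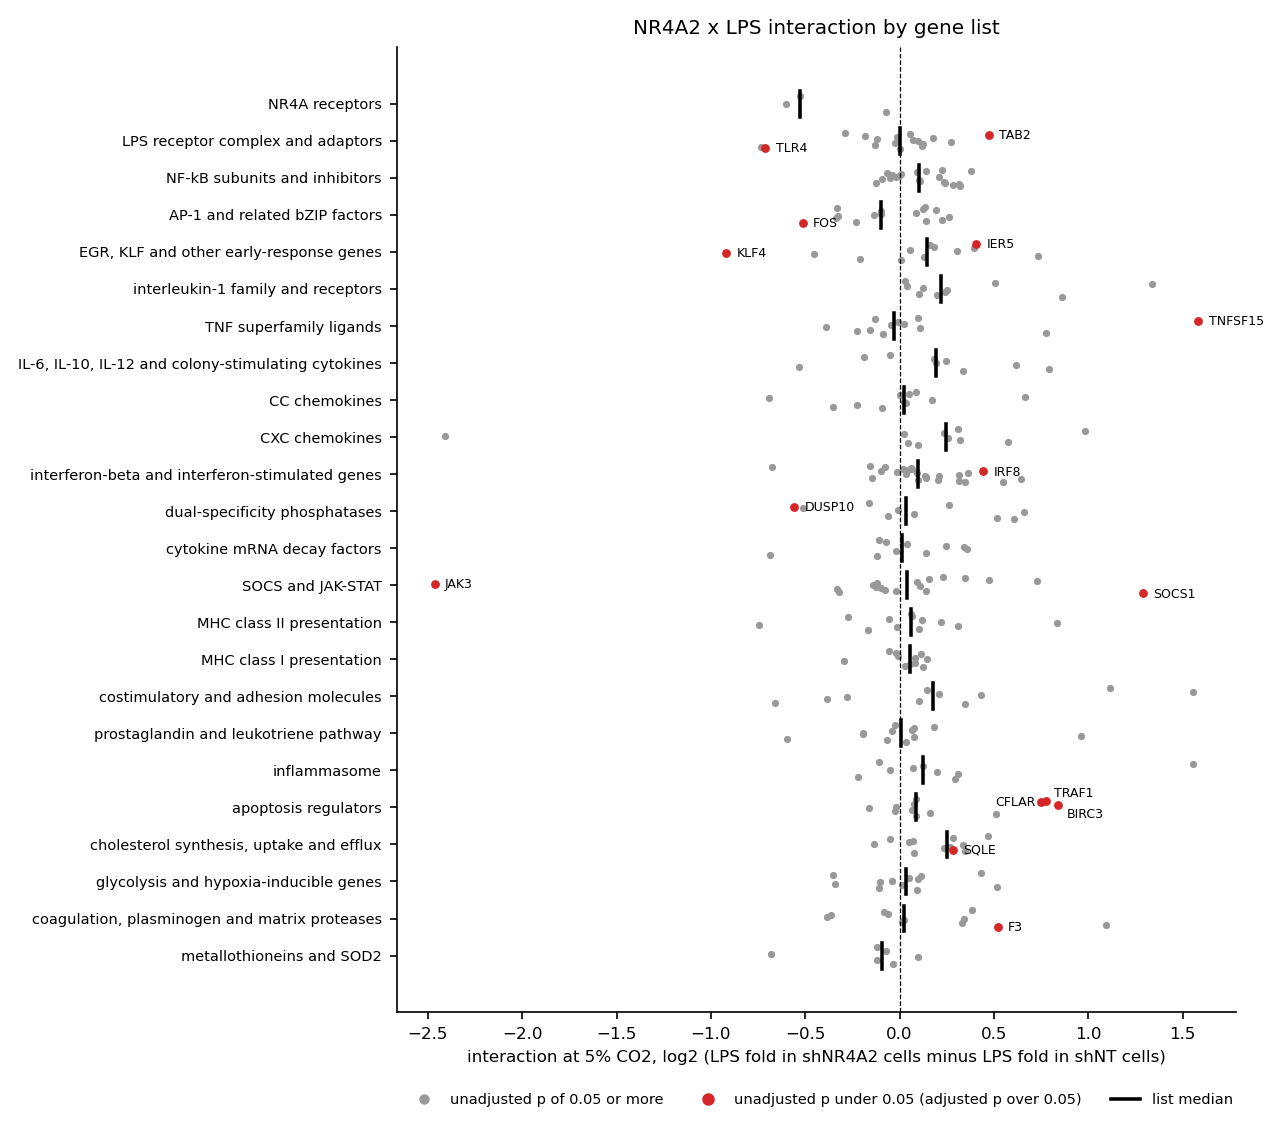
Interaction (log2) of each tested member of the 24 lists of LPS-response genes, 1 point per gene, red where the unadjusted p was under 0.05, with each list's median as a black bar. The medians run from -0.53 for the NR4A receptors to 0.25 for the cholesterol list and the CXC chemokines, and no member passed the adjusted threshold.

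Of the 20 NF-kB subunits and inhibitors, 17 were raised by LPS (16.7% of all tested genes), and the median interaction was 0.10. The interval lay within a 2-fold difference for 18 of them (65.8% of all genes with a fitted fold change). NFKBIA, the inhibitor that NF-kB itself induces, was at 141, 117 and 118 TPM in basal shNT and 124, 119 and 115 TPM in basal shNR4A2 cells. LPS took it to 1909, 1783 and 1644 TPM in shNT and to 2105, 1938 and 1721 TPM in shNR4A2 cells, which overlapped, and the interaction was 0.23 (-0.09 to 0.56). TNFAIP3 (A20), the deubiquitinase that ends NF-kB signalling, had -0.07 (-0.77 to 0.63). Among the 17 tested receptor and adaptor genes the median was 0.00. TLR4 was at 21.6, 16.6 and 17.0 TPM in basal shNT and 39.2, 36.1 and 26.3 TPM in stimulated shNT cells, against 26.1, 15.5 and 17.4 and then 23.4, 24.3 and 16.3 TPM in shNR4A2 cells, with an interaction of -0.71 (unadjusted p = 0.026). TAB2, an adaptor of the TAK1 kinase, rose in both lines, by 0.95 and 1.43, and its interaction was 0.47 (unadjusted p = 0.0046).

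Early-response factors varied around 0. The 15 AP-1 and related genes had a median interaction of -0.10 and the 12 EGR, KLF and other early genes 0.14. FOS stood higher in basal shNR4A2 cells, at 56.4, 54.0 and 51.9 TPM, than in basal shNT cells, at 30.9, 29.8 and 25.6 TPM (line difference 0.91, adjusted p = 0.00061), and had an interaction of -0.51 (unadjusted p = 0.016). KLF4, a monocyte differentiation factor, was likewise higher in basal shNR4A2 cells, at 38.6, 27.5 and 28.1 against 19.4, 15.3 and 16.9 TPM (adjusted p = 0.021). With LPS it was at 19.5, 15.5 and 13.2 TPM in shNT and 19.2, 15.3 and 10.4 TPM in shNR4A2 cells, and the interaction was -0.92 (-1.55 to -0.29, unadjusted p = 0.00699). EGR1 had 0.01, with an interval of -0.99 to 1.01.

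TNF and IL1B, the main early inflammatory cytokine genes, were strongly induced in both lines. TNF was at 2221, 2168 and 1964 TPM in stimulated shNT and 2223, 2130 and 2026 TPM in stimulated shNR4A2 cells, which overlapped. Its LPS effects were 5.23 and 5.14, and the interaction -0.09 (-0.64 to 0.47). IL1B was at 4935, 3686 and 3715 TPM and at 7943, 5137 and 4963 TPM, every stimulated shNR4A2 library higher than every shNT library, but basal levels were 27.6, 19.6 and 25.9 TPM against 35.6, 28.0 and 33.5 TPM, and the interaction was 0.20 (-0.41 to 0.81). IL1A, its relative, rose by 7.80 and 8.66 (interaction 0.86, -0.47 to 2.20), and IL23A, a subunit of interleukin-23, by 6.41 and 7.02 (0.62, -0.21 to 1.44). All 10 genes of the interleukin-1 family with a fitted value had a positive interaction, with a median of 0.22, and none of them had an unadjusted p under 0.05. At 10% CO2 the value was positive for 6 of the 11 tested, and that of IL1B was -0.05. CXCL8, the neutrophil attractant, had 0.26 (-0.62 to 1.13), and 9 of the 10 CXC chemokines were positive, with a median of 0.25. The exception, CXCL9, had -2.41, with at most 4 counts in any basal library. Of the 10 intervals, 1 lay within a 2-fold difference. Beside these lists, 650 of the 949 genes induced at least 2-fold by LPS had a positive interaction at 5% CO2, as had 9032 of all 17660 genes with a fitted fold change. The 11 CC chemokines with a fitted value had a median of 0.02. IL6 was listed at 0 in all 6 basal libraries. With LPS it was at 3.62, 1.31 and 2.25 TPM in shNT and 9.38, 5.46 and 7.52 TPM in shNR4A2 cells, a called line difference of 1.68 (SE 0.36, adjusted p = 0.0123), but without a basal level no difference in induction could be given. TNFSF15 (TL1A), a T cell costimulator of the TNF family, was at 3.71, 2.54 and 2.81 TPM in stimulated shNT and 19.6, 10.3 and 13.7 TPM in stimulated shNR4A2 cells (line difference 2.33, adjusted p = 0.00074), and its interaction was 1.58 (unadjusted p = 0.017).

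BIRC3 (cIAP2), an inhibitor of apoptosis, was at 35.6, 31.8 and 32.9 TPM in stimulated shNT and 48.5, 40.6 and 54.4 TPM in stimulated shNR4A2 cells, with basal levels of at most 1.01 TPM, and its interaction was 0.84 (unadjusted p = 0.0063). TRAF1, its partner at TNF receptors, was at 48.2, 34.3 and 38.4 and at 74.4, 54.8 and 79.4 TPM, with 0.77 (unadjusted p = 0.0128). In both genes the stimulated lines did not overlap. With CFLAR these are 3 of the 12 apoptosis regulators at an unadjusted p under 0.05. That share was 2.21% in all tested genes and 10.0% in those induced at least 2-fold by LPS. The interaction was not called for any of the 12, their median was 0.09, and MCL1 had 0.07 (-0.29 to 0.42). SOCS1, a feedback inhibitor of JAK kinases, fell with LPS, to 0.214 of its basal mean TPM in shNT and 0.501 in shNR4A2 cells. Its interaction of 1.29 (unadjusted p = 0.0071) was thus a smaller fall. JAK3 had -2.46 (unadjusted p = 0.013). LPS changed its mean TPM 4.14-fold in shNT and 0.724-fold in shNR4A2 cells, where levels with and without LPS overlapped. The 18 SOCS and JAK-STAT genes had a median of 0.04. The 10 dual-specificity phosphatases had 0.03, with DUSP10 at -0.56 (unadjusted p = 0.03), and the 10 mRNA decay factors 0.01.

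Several interferon, antigen presentation and adhesion genes were called higher in the shNR4A2 line. Of 26 interferon genes examined for this, 3 were higher in the basal state and 5 with LPS. For 11 adhesion and costimulatory genes the counts were 1 and 4. The shares of all tested genes were 3.48% and 4.67%. The 26 interferon genes with a fitted value had a median interaction of 0.09. IRF8, a factor of monocyte and dendritic cell development, was at 231, 252 and 194 TPM in stimulated shNT and 291, 368 and 341 TPM in stimulated shNR4A2 cells (line difference 0.61, adjusted p = 0.0029), with an interaction of 0.44 (unadjusted p = 0.0144). Of the 11 MHC class I genes, 5 were called higher in shNR4A2 cells in the basal state and 7 with LPS (3.48% and 4.67% of all tested genes), and their median interaction was 0.06. HLA-F stood 2.55 higher in the basal state and 2.26 higher with LPS on the log2 scale, an interaction of -0.30 with an upper bound of 0.41. Of 12 tested MHC class II genes, 5 and 4 were called higher, among them HLA-DRB1 at 0.74 and 0.84, and their median interaction was 0.06. HLA genes are near-identical in parts, and their separate values are uncertain. LPS raised 10 of the 11 adhesion and costimulatory genes (16.7% of all tested genes). The 10 with a fitted value had a median interaction of 0.18, with CD83 at 0.10 (-0.21 to 0.42) and ICAM1 at 0.43 (-0.25 to 1.12).

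In the remaining lists the medians were 0.25 for 12 genes of cholesterol synthesis, uptake and efflux, with 10 positive and SQLE, the squalene epoxidase gene, at 0.28 (unadjusted p = 0.0377), 0.13 for 9 inflammasome genes, 0.03 for 12 glycolytic and hypoxia-inducible genes, 0.02 for 11 coagulation and matrix genes, 0.01 for 12 prostaglandin and leukotriene genes, -0.03 for 12 TNF ligands and -0.09 for 6 metallothionein genes. F3, the tissue factor gene that starts coagulation, had 0.52 (unadjusted p = 0.0082), IER5, an early-response gene, 0.41 (unadjusted p = 0.009), and PTGS2, the inducible cyclooxygenase, -0.07 (-1.14 to 1.01).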

How the data were processed

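Poly(A)-selected RNA of THP-1 cells was sequenced. After trimming (Trimmomatic 0.36) and alignment to GRCh38 (STAR 2.5.2b), the authors deposited whole-number counts per gene from featureCounts of Subread 1.5.2, with 1 library per file and no normalization. Which annotation release was used, how strand was set and if fragments or single reads were the unit is not given in the sources used here, so that counts of overlapping genes are uncertain. Gene IDs (57500) were paired with symbols for 56410 (98.1%). Conditions came from the sample labels.

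Genes were kept by edgeR's filterByExpr over all 36 libraries (minimum count 10, minimum total 15). The 12 libraries at 5% CO2 were scaled by TMM and fitted with edgeR's quasi-likelihood test (edgeR 4.0.16, limma 3.58.1, R 4.3.3), with Benjamini-Hochberg adjustment over 17720 genes. The common biological coefficient of variation was 13.0%. The study used DESeq2, which was run here as an alternative (1.42.0). A gene with a condition at 0 in every library has no fitted fold change (60 genes). TPM was calculated with the gene lengths that accompany the counts. The method was tested on simulated data. Libraries of a condition differed by more than sampling noise (chi-square per degree of freedom 8.65 to 26.2), the highest with replicate 2 of LPS-stimulated shNR4A2 cells, and no library was a copy of another.

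The genes and lists were chosen with earlier results of these data known. The rule for named genes took the NR4A genes, called interactions or, with fewer than 10 of these, the 10 smallest p-values, the 2 list members of highest TPM, and the 3 largest LPS effects in each direction. Other genes, those called at 10% CO2, over both CO2 levels or in an alternative, and list members of low unadjusted p or of known importance, were named after their values were seen. Alternatives were RLE and library-size scaling, DESeq2, other filters, a replicate block, a fit to all 36 libraries, thinned counts, each library left out and stricter thresholds. For the difference between the knock-down lines, 18 of 18 correlations between libraries of the same replicate number were over 0.1, the lowest at 0.276. No label ties the numbers, and the values given for that difference come from the fit without a block unless a block is named. Not every gene the rule took is named. For 1 gene no result is reported here, though it stayed in every fit and count.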

Additional observations from a re-analysis of the deposited data

Results flagged for a closer look

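The LPS response differed between the shNR4A2 and shNT lines at 10% CO2 by the interaction test in the 7 genes given here, in libraries other than those at 5% CO2. The LPS effect in shNR4A2 cells was more negative for CXCR4 (interaction log2 -1.81). It was more positive for SERPINE2 (1.55), PDSS1 (1.17), MYC (1.18), ENSG00000277969 (1.60), RAPGEF2 (0.90) and C11orf96 (2.35). The 5% CO2 interaction of each had the same sign and was not called.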

How the results depend on the processing

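Of 244 comparisons of 10 results with an alternative, 206 gave the same call or a count within 1.5 times, and 0 called values changed direction. Where a result had 0 genes called, a stricter threshold could only give 0 again, and such comparisons are among the 206. Interactions that were not called did change sign, in at least 1 alternative for 33 of 66 genes that the rule took, each with an interval that held 0. The largest of these in size was that of ADORA3, at 0.684 (-0.49 to 1.62 over the alternatives). EGR1 did so in 11 of 23 alternatives (-0.20 to 0.31), CCL4L2 in 7, CCL4, NR4A1 and TNFAIP3 in 6, TNF in 4, CXCL8 in 2 and IL1B in 1. For the 5% CO2 interaction, called for 0 genes, DESeq2 gave 2, no filter on low counts 19, and leaving out 1 library 0 to 8. The 8 came without replicate 2 of LPS-stimulated shNR4A2 cells (among them CALCRL, CFLAR, MARCKS, MYC, KANK1, PDSS1 and ENSG00000277969). The fit over both CO2 levels, added after the values were seen, gave 40. At 10% CO2, with 8 called, DESeq2 gave 50, no filter 63, a minimum of 1 CPM 13, thinned counts 5, the fit to all 36 libraries 3, an adjusted p of 0.01 gave 5, and leaving out 1 library 5 (without replicate 3 of LPS-stimulated shNT cells at 10% CO2) to 16 (without replicate 2 of shNR4A2 cells at 10% CO2). The shNR4A3 interaction, at 0, became 8 with DESeq2, 85 without a filter and 0 to 39 with 1 library left out, the 39 without replicate 2 of LPS-stimulated shNR4A3 cells. The difference between the knock-down lines, at 0, became 1 with DESeq2 and 18 without a filter.

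The replicate number as a block gave 8 genes at 5% CO2 (among them CXCR4, ACVR2A, GCNT1, KLF4, PHLDA1, GPR132 and ENSG00000277969), 74 at 10% CO2, 88 over both levels, 17 for shNR4A3, 1 for the difference between the knock-down lines, 4891 for LPS in shNT cells, and 2685 and 3154 for the line difference without and with LPS. In the 5% CO2 fit 16 of 18 correlations between libraries of the same number were over 0.1 (lowest 0.074), and 11 of 12 libraries correlated best with their own number, a hint from the data and not from the design. Nothing in the labels ties the numbers to a shared culture, and the block is therefore given as an alternative.

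The line difference without LPS, called for 1131 genes, was called for 1791 in the fit to all 36 libraries, 497 at an adjusted p of 0.01, and 557 to 1276 with 1 library left out, lowest without replicate 3 of basal shNT cells and 718 without replicate 2. With LPS, called for 1416, the counts were 2212, 650, and 778 to 1671, with 778 without replicate 2, 854 without replicate 3 of LPS-stimulated shNT cells and 935 without replicate 1 of LPS-stimulated shNR4A2 cells. For LPS itself, an adjusted p of 0.01 gave 1895 in shNT and 2627 in shNR4A2 cells, and a fold of at least 1.5 gave 2954 on average and 2689 in shNR4A2 cells. Scaling by library size alone moved the median LPS effect by -0.19 and the share of LPS calls that were higher from 47% to 20.3%, and the median interaction by -0.05. The basal call of MAP3K4-AS1 was lost without replicate 1 of basal shNT cells (adjusted p = 0.0516). The cause of these changes was not tested. With 3 libraries per condition, intervals exceed a 2-fold width in either direction for NRP2, JAK3, CXCL10 and other genes low in some condition. CXCL10 was low only without LPS, at 6 to 13 counts per library. The cause of these widths was not tested.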
